A study of Bos taurus with 86 samples.

Results

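The data described here come from single bovine (Bos taurus) embryos labelled IVF, the abbreviation for in vitro fertilisation, in a study whose title names in vitro maturation, fertilisation and culture. They were selected by their sample titles: 15 of the 43 embryos of the series and 30 of its 86 arrays. The other embryos were labelled AI (14 embryos, 28 arrays) and IVD (14 embryos, 28 arrays), abbreviations that the labels do not spell out. Each embryo was hybridised on a pair of 2-colour cDNA arrays with the dyes exchanged, always against the same reference standard RNA, whose composition the labels do not state. The embryonic stage, sex, sire, dam and production batch of the embryos are not in the labels, so what separates one IVF embryo from another cannot be assigned to any of them.

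An embryo produced in vitro passes from maternal to embryonic transcription and then forms a blastocyst, in which an epithelium, the trophectoderm, encloses a fluid cavity and the inner cell mass. The trophectoderm is sealed by tight junctions, expresses simple epithelial keratins and, in ruminants, makes secreted proteins such as the pregnancy-associated glycoproteins. Measuring embryos one at a time keeps the differences between embryos that a pool averages out. Such differences can be told from measurement error only where each embryo was measured more than once, as here by the exchanged dyes.

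Values are log2 ratios of embryo over reference, turned so that both arrays of an embryo run the same way, with each array centred on its median, and the value of an embryo is the mean of its arrays. The direction embryo over reference follows from the dyes in the labels taken as Cy5 over Cy3 and is likely rather than stated; the spread between embryos does not depend on it. All arrays of one dye orientation correlated positively with each other (lowest r = 0.522 with the embryo in Cy5 and 0.704 in Cy3). The turned arrays of an embryo correlated with r = 0.717 in embryo 7 to 0.911 in embryo 4, with a median of 0.882. Between 10255 and 15300 of the 16416 rows had a value on an IVF array, and 7208 rows had one on all 30. Averaged by gene symbol, these gave 4380 features, of which 2578 were named genes and 1802 were rows without a single gene name. The number of arrays limits the precision of every value below. The p-values of means against the reference measure the spread between these embryos only. Those of the F-test set that spread against array error, and those of the comparisons with AI and IVD also use the embryos of these groups.

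Most measured trophectoderm markers were above the reference RNA, whose composition is not stated, so these ratios do not give the cell types present. Of 13 trophectoderm markers, 11 were on the array and 10 were measured in all embryos. Against 37.4% of all features, 9 of these 10 were above the reference (limma, adjusted p under 0.05). They included the prostaglandin synthase PTGS2 at a mean log2 ratio of 5.19, the transcription factor TFAP2C at 3.06, KRT18 at 2.67, KRT19 at 2.52, GATA3 at 1.7 and GATA2 at 1.61. TFAP2A was the exception, with a mean of -0.12 (adjusted p = 0.43). The only inner cell mass marker measured throughout was SALL4, at 1.72, but its mean was -0.17 when rows measured in at least 12 embryos also entered. All 3 measured fibroblast markers were far below the reference: COL3A1 at -5.21, VIM at -4.44 and COL1A2 at -3.75. Of the short marker sets, no primitive endoderm, blood, oviduct or oocyte marker was measured in all embryos, and the only cumulus and granulosa marker was CYP19A1 (-0.14, adjusted p = 0.0516). The longer lists held more. The steroidogenic genes CYP11A1 and HSD3B1 had means of 0.24 (adjusted p = 0.0135) and -0.55 (adjusted p = 0.00698). The basement membrane genes SPARC (-1.60), LAMC1 (-1.48), LAMB1 (-0.88) and FN1 (-0.63) and the blood and immune genes BOLA-DRB3 (-3.66) and SRGN (-3.07) were below the reference, and MSX1 of the oviduct and endometrium list had -0.10 (adjusted p = 0.34). The clones of LAMC1 correlated at 0.0508 over the embryos.

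Relative to the reference, 1639 of the 4380 features were higher in the IVF embryos (37.4%) and 1767 were lower (40.3%) by limma at an adjusted p under 0.05. The centring of each array sets where 0 lies, so the balance of these counts depends on it. Without centring 1095 features were higher and 2093 lower. PTGS2 led, with a lowest embryo value of 4.89, a median of 5.22 and a highest of 5.43, a range of embryos far above the reference without exception. ENPEP, a membrane aminopeptidase, followed with a mean of 5.01, and the adhesion molecule CDH1 (E-cadherin) with 4.33. TIMM23, the channel subunit of the inner mitochondrial membrane translocase, had a mean of 4.27. The water and glycerol channel AQP3 (4.01), the tight junction proteins CLDN6 (3.97) and OCLN (3.78), the adhesion protein MPZL2 (3.71), the sphingosine-1-phosphate lyase SGPL1 (3.62), the death receptor adaptor FADD (3.52), the homeobox factor MSX2 (3.47) and the acyltransferase GPAT3 (3.32) completed the highest 12. Standard errors of these means lay between 0.061 for PTGS2 and 0.157 for FADD.

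The lowest mean was that of COL3A1, a fibrillar collagen. After it came TCAM1 at -4.99, the endothelial proteoglycan ESM1 at -4.90, the matrix glycoprotein TNC at -4.70, the caveolar coat protein CAV1 at -4.54 and the intermediate filament VIM at -4.44, whose clones correlated at 0.299 over the embryos. TCIM (-4.22), the splicing regulator MBNL1 (-4.17), the sarcoglycan SGCE (-4.10), FHL1 (-4.08), the PCNA-binding protein PCLAF (-4.03) and the acyl-CoA synthetase ACSL5 (-4.03) completed the lowest 12. A ratio far from the reference came with no fixed spread between embryos: across all features the Spearman correlation of the embryo SD with the size of the mean ratio was 0.175.

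The spread between embryos exceeded the array error for most features. The embryo SD, the standard deviation of the 15 embryo values, had a median of 0.412 log2 units, and the technical SD, that of the dye-swap half-differences on the same scale, a median of 0.198. For 5% of features the embryo SD was below 0.216 and for 5% above 0.828. By limma's moderated F-test of embryo against array error, 2982 of 4380 features (68.1%), among them 1813 named genes, varied between embryos at an adjusted p under 0.05. In the median feature the embryo SD was 1.95 times the technical SD. The array error holds labelling and hybridisation only. Amplification, which had more rounds for the embryo RNA than for the reference RNA, may be common to both arrays of an embryo, and its part in the spread was not tested.

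**Figure D1:**
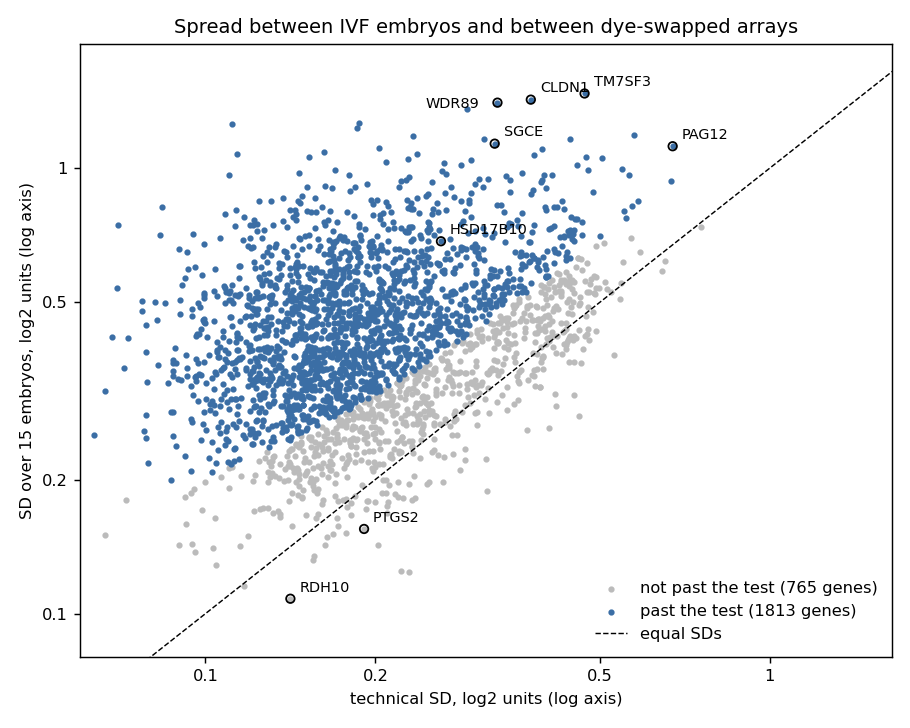
Each point is one of 2578 named genes; the horizontal axis gives its technical SD and the vertical axis its SD over the 15 IVF embryos, both in log2 units on log axes, with the dashed line at equal SDs. The 1813 genes past the F-test (blue) lie above the line, TM7SF3, CLDN1 and WDR89 are at the top with embryo SDs of 1.47, 1.43 and 1.4, and PTGS2 and RDH10 lie below the line.

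An embryo SD above 1 log2 unit was found for 90 features, 28 of them named genes. The highest was that of TM7SF3, a multi-pass membrane protein: embryo 11 had -2.74, the median was 0.17 and embryo 1 had 2.63. The other embryos were spread between these values, and the SD was 1.19 without embryos 1, 7 and 11. The technical SD of TM7SF3 was high, 0.47, and the arrays of embryo 7 read -2.12 and 0.83. CLDN1, a tight junction claudin, came next with an SD of 1.43, from -2.85 in embryo 9 through a median of -0.54 to 2.25 in embryo 18. Its mean did not pass the test against the reference (-0.28, adjusted p = 0.435), although CLDN6 and OCLN, of the same junctions, were above it in each embryo. The SD of CLDN1 was the same, 1.43, without embryos 1, 7 and 11.

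WDR89, a WD-repeat protein, had an SD of 1.4 that depended on one embryo. Embryo 1 stood at -2.81 and embryo 11 at -0.59, while the median was 1.7 and the highest value, in embryo 16, was 2.67. Without embryo 1 the SD was 0.886, and without embryos 1, 7 and 11 it was 0.702. SPRTN, a protease that removes DNA-protein crosslinks, had an SD of 1.36, with embryos 9, 1 and 19 low at -4.45, -4.29 and -3.52. Its median was -1.24 and embryo 18 was highest at 0.22. For DMTF1, a cyclin D-binding transcription factor, the SD of 1.26 fell to 0.603 without embryos 1, 7 and 11, since embryos 11 and 1 were at -3.44 and -3.25 against a median of -0.28.

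OCIAD2, a mitochondrial membrane protein, was spread evenly, with an SD of 1.23. Its lowest values were -4.06 in embryo 19 and -3.92 in embryo 12, its median was -1.91, and its highest values were -0.11 in embryo 7 and -0.52 in embryo 9. LOC782748, which the annotation does not name further, had an SD of 1.25 beside a technical SD of 0.112. Embryos 19 and 1 were low at -1.90 and -1.84, the median was 1.10 and embryo 9 was highest at 2.17. ETV5, an ETS-family transcription factor, was below the reference in each embryo but embryo 19, which was at 0.11, while the median was -2.88 and embryo 7 was lowest at -3.54. Its SD was 1.10.

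The spread of other genes among the highest 20 depended on a single embryo. SGCE, an imprinted sarcoglycan gene, lay between -4.86 and -3.78 in the other 14 embryos and at -0.15 in embryo 11. Its SD of 1.13 was 0.318 without that embryo. Both arrays of embryo 11 showed it, at 0.28 and -0.58, whereas the mean of the others was -4.38. PLA2G7, the platelet-activating factor acetylhydrolase, was at 2.68 in embryo 11 against a median of -1.35, and its SD was 1.19 with that embryo and 0.642 without. Its technical SD was high, 0.575, and the arrays of embryo 11 read 3.13 and 2.23. Among the 2578 named genes, 209 had an SD over 1.5 times as high with their most extreme embryo as without it.

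The pregnancy-associated glycoprotein PAG12 had a mean of 2.12 and an SD of 1.12, beside a high technical SD of 0.673. Embryo 7 was lowest at -0.84 and embryo 1 highest at 4.30, with a median of 2.16. The arrays of embryo 7 read -2.96 and 1.28, and those of embryo 1 read 2.87 and 5.73, so each array of embryo 7 was below each array of embryo 1, but the arrays of an embryo differed by more than the SD. The remaining genes of the highest 20 were KCTD18 (SD 1.18), the cytochrome c oxidase assembly factor COA7 (1.16), the unconventional myosin MYO1D (1.16), OSGIN2 (1.11), the mitochondrial amidotransferase subunit QRSL1 (1.09), the ubiquitin-conjugating enzyme UBE2B (1.08), the adaptor BCAR3 (1.07), the lysosomal acid lipase LIPA (1.07) and the ERK phosphatase DUSP6 (1.06). The technical SD of MYO1D was high, 0.443. All 20 genes passed the F-test, which their choice required.

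**Figure D2:**
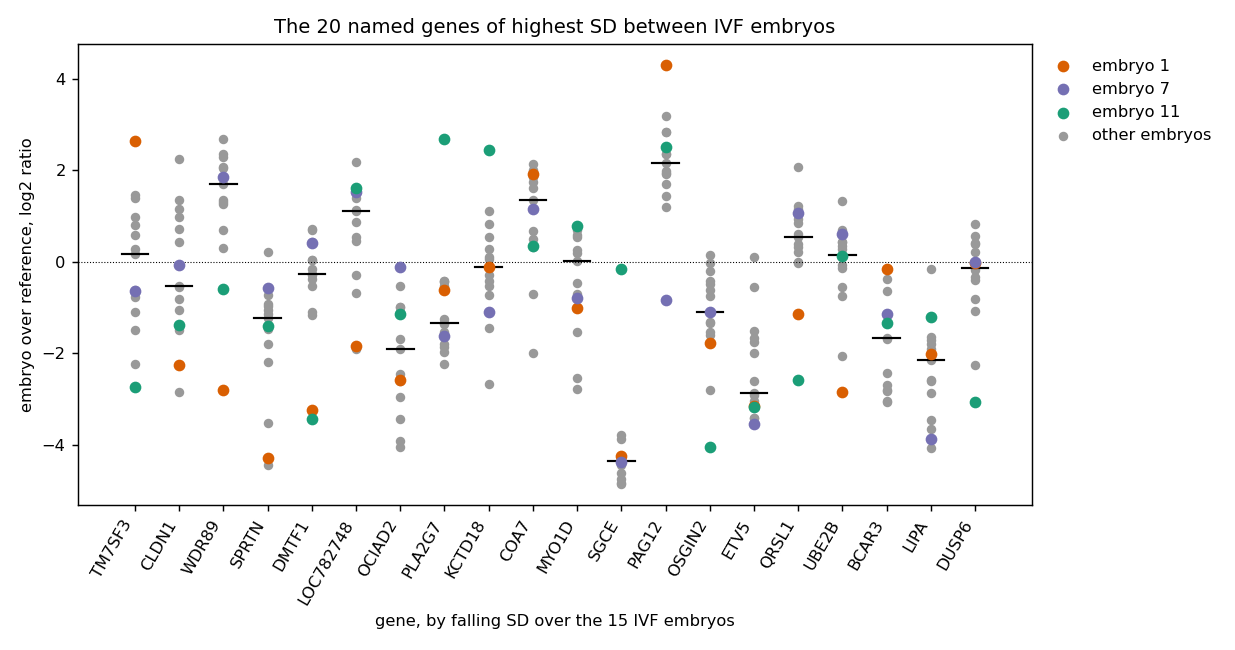
Each column is one of the 20 named genes of highest embryo SD, each point one IVF embryo (mean of its arrays) as log2 embryo over reference, and the black bar the median of 15 embryos; embryos 1, 7 and 11 are coloured. SGCE and PLA2G7 show embryo 11 apart at -0.15 and 2.68, WDR89 shows embryo 1 apart at -2.81, and CLDN1, SPRTN and OCIAD2 spread over many embryos.

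At the other end, 6 of the 8 named genes of lowest embryo SD had an SD no higher than their technical SD; PLCL2 (0.129 beside 0.104) and UBE4B (0.138 beside 0.0958) were above it. RDH10, a retinol dehydrogenase, lay between 0.27 and 0.56 with an SD of 0.108 and a technical SD of 0.141. POMP, a proteasome assembly chaperone, had an SD of 0.124 around a mean of -0.51, ZNRF1, a ubiquitin ligase, 0.125 around -0.03, and LRP10, a lipoprotein receptor relative, 0.134 around -0.33. UBE4B had a mean of 0.22, and its SD was 0.0714 without embryo 1, its lowest at -0.21. LRATD1 (0.115), PLCL2 (0.129) and FCGRT (0.132) belong to the lowest 8 as well, but their clones disagreed over the embryos (lowest r between rows -0.682, -0.589 and -0.481), and each of their single rows had a higher SD than the mean of the rows (lowest row SD 0.242, 0.249 and 0.164). PTGS2 joined a high level with a narrow spread: its SD of 0.155 was below its technical SD of 0.191, and it did not pass the F-test (adjusted p = 0.794).

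Fixed lists of genes were read against the 68.1% of all features that varied between embryos and their median embryo SD of 0.412. Of the trophectoderm list, 12 of 15 measured genes (80.0%) varied, with a median SD of 0.547. Of the 15, 12 were above and 2 below the reference, against 37.4% and 40.3% of all features. The most variable after PAG12 were HSD3B1, a steroidogenic dehydrogenase (SD 0.740), the growth factor receptor FGFR2 (0.730, mean -2.88) and the endocytic adaptor DAB2 (0.708). DAB2 ran from 0.42 in embryo 18 to 3.13 in embryo 9, all embryos being above the reference. Of the junction and blastocoel list, 8 of 14 genes (57.1%) varied, with a median SD of 0.382. After CLDN1 the highest SD was that of CTNND1, a catenin bound to cadherins, at 0.602, but without embryo 11, its lowest at 1.29, this was 0.391. The keratins KRT8, KRT18 and KRT19 were above the reference in each embryo. Among them KRT19 varied (SD 0.438, adjusted p = 0.0024), while KRT8 (0.447, adjusted p = 0.0658) and KRT18 (0.194, adjusted p = 0.603) did not pass.

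Of the immediate early and MAPK list, 11 of 12 genes passed the F-test (91.7%; median SD 0.528), led by DUSP6, FOSB (0.703), FOS (0.688) and FOSL2 (0.645). FOS, a subunit of the AP-1 transcription factor, was lowest in embryo 12 at -3.03 and highest in embryo 19 at -0.47, with a median of -2.03. FOSB, its relative, was lowest in embryo 9 at -0.63 and highest in embryo 13 at 2.01, so that these relatives peaked in different embryos. The genes of this list had a median pair correlation over the embryos of 0.0231. Of the amino acid response list, 10 of 11 varied (90.9%; median SD 0.492). PSPH, the last enzyme of serine synthesis, ranged from -3.71 in embryo 1 to -1.06 in embryo 16. The transcription factor ATF3 ranged from -0.30 in embryo 12 to 2.14 in embryo 11, and DDIT4, an inhibitor of mTORC1, from -3.10 in embryo 13 to -1.18 in embryo 2. Of the oxidative stress list, 16 of 22 varied (72.7%; median SD 0.425), a share near that of all features. HMOX1, haem oxygenase, had the highest SD, 0.944, with embryos 11 and 18 lowest at -1.80 and -1.61 and embryo 13 highest at 1.44.

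The respiratory chain list had 29 of 36 genes past the F-test (80.6%), at a median SD of 0.396. SDHA, a succinate dehydrogenase subunit, had an SD of 0.569 that was 0.237 without embryos 1, 7 and 11. Of the heat shock and folding list, 15 of 22 varied (68.2%), with the small heat shock protein HSPB8 the most variable (SD 0.956, from -2.61 in embryo 19 to 0.52 in embryo 18). The proteasome list had 10 of 20 (50.0%; median SD 0.343) and the extracellular matrix and cytoskeleton list 17 of 32 (53.1%; median SD 0.381). Of the glycolysis list, 10 of 13 varied (76.9%), and embryo 1 was highest in the median of this list, 0.60 above the mean of the embryos. In embryo 1 the glucose transporter SLC2A1 was at 2.16 against a median of 0.77, ENO1 at 0.22 against -0.83 and GAPDH at -0.06 against -1.54.

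The cytosolic ribosomal proteins had a higher pair correlation than features at large. Of 37 measured, 23 varied (62.2%, median SD 0.343). Of the 37, 35 were below the reference (40.3% of all features were), and the list had a median mean of -0.92. Their median pair correlation over the 15 embryos was 0.251 (0.160 when one gene was read on the Cy5-embryo arrays and the other on the Cy3-embryo arrays), where all features had -3.97e-04. The median deviation of the list was lowest in embryo 13 at -0.39, followed by embryo 18 at -0.24 and embryo 7 at -0.21, and highest in embryo 1 at 0.25 and embryo 12 at 0.23. RPL22 had the highest SD, 0.651, and went against the list in embryo 1, where it was lowest at -2.39. RPS9 (0.584), RPL29 (0.525) and RPL30 (0.470) followed; RPL29 had an SD of 0.248 without embryo 7.

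Of the imprinted genes, 6 of 9 varied (66.7%; median SD 0.526). After SGCE came GRB10, an adaptor of growth factor receptors, with an SD of 0.964 and its lowest value, -3.83, in embryo 10. PLAGL1, a zinc-finger transcription factor, had its highest value, -1.92, in that same embryo, against a median of -3.63. IGF2R had an SD of 0.564. No gene of the Y-linked list was on the array, and of the maternal oocyte list 1 of 30 was on it and none was measured in all embryos.

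On centred arrays, X-linked genes had a higher median pair correlation over the embryos than the genes of each autosome. Of the X-linked list, 20 of 21 passed the F-test (95.2%), at a median SD of 0.447 and a median pair correlation of 0.356. As this list was chosen with earlier results known, all 81 measured genes that RefSeq places on chromosome X were read beside those of each of the 29 autosomes. Of the 81, 68 varied (84.0%; autosomes 58.5% to 88.0%). Their median pair correlation was 0.107 (0.0865 across arrays), and that of the autosomes was between -0.0235 and 0.0531. Without embryos 1, 7 and 11 it was 0.133, and the autosomes lay between -0.0138 and 0.0293. Without centring of the arrays, an alternative added after seeing the data, X had 0.546 and the autosomes 0.413 to 0.641, so X was above each autosome only after centring. The median deviation of the X genes had an SD over embryos of 0.187, and that of the autosomes between 0.0261 and 0.109. Correlations are given as a description; the points are the same 15 embryos and the genes share arrays.

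The embryos fell on both sides of a gap in this X median. Embryo 12 was at 0.41, embryo 1 at 0.30, embryo 6 at 0.20, embryo 13 at 0.19 and embryo 7 at 0.15. The other 10 were between -0.18 in embryo 5 and -0.02 in embryo 9. The labels give no sex for the embryos. Embryo 1 was also the highest on 9 of the 29 autosomes: 29 (0.29), 25 (0.25), 18 (0.20), 23 (0.19), 13 (0.18), 19 (0.15), 22 (0.14), 7 (0.13) and 3 (0.12). It was the lowest embryo on autosomes 27 (-0.25), 12 (-0.19), 20 (-0.13) and 6 (-0.11). In the other groups the X genes had a median pair correlation of 0.131 in AI (autosomes -0.0171 to 0.0857) and 0.220 in IVD (5.54e-04 to 0.0309), so X was above each autosome in all 3 groups of centred arrays.

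Single X genes followed the median of the other X genes to different degrees. The correlation was above 0 for 63 of the 81 and above 0.5 for 26. The genes named next were chosen after their values were seen. The highest was that of GNL3L, a nucleolar GTPase (r = 0.848), from -1.89 in embryo 3 to -0.22 in embryo 1. HSD17B10, a mitochondrial dehydrogenase (r = 0.843), ran from -0.58 in embryo 11 through a median of 0.48 to 1.81 in embryo 1. PLP2, a membrane proteolipid, had the widest spread of these, an SD of 0.967 beside a technical SD of 0.110, from -2.91 in embryo 11 to 0.55 in embryo 1. The ubiquitin-activating enzyme UBA1 (r = 0.777), the chromosome-associated kinesin KIF4A (0.749), FAM50A (0.727), the ubiquitin-conjugating enzyme UBE2A (0.703), the proton pump accessory subunit ATP6AP1 (0.690), the actin-binding peptide TMSB4X (0.670) and the pyruvate dehydrogenase subunit PDHA1 (0.668) followed. Each of these passed the F-test except UBE2A (adjusted p = 0.0575).

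**Figure D3:**
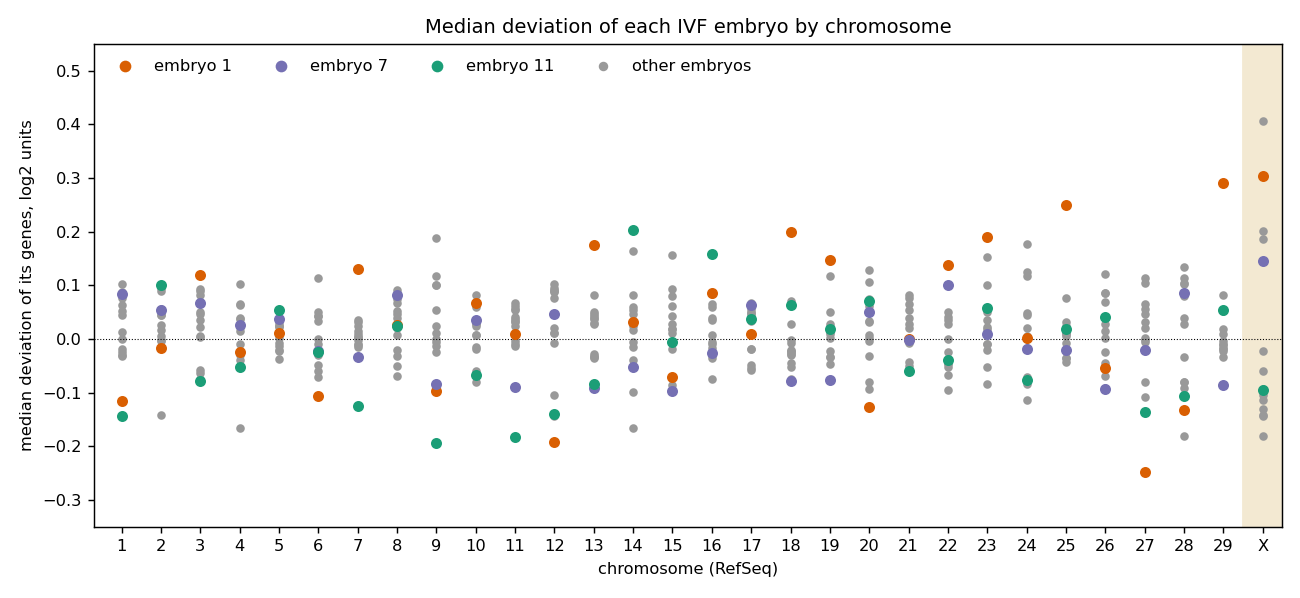
Each point is the median deviation of one IVF embryo from the mean of the 15, in log2 units, over the measured genes of a chromosome (horizontal axis, RefSeq); embryos 1, 7 and 11 are coloured and the X chromosome is shaded. The X column spreads from -0.18 to 0.41 with 5 embryos above the others. Embryo 1 is highest on 9 autosomes, among them 29, 25 and 18, and lowest on 27, 12, 20 and 6.

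Some embryos stood apart in the whole profile. Over the 4380 features the root mean square deviation from the group mean was 0.789 in embryo 11, 0.680 in embryo 1, 0.6 in embryo 7, 0.589 in embryo 19 and 0.554 in embryo 18, and between 0.337 and 0.482 in the other 10. Made from dye-swap half-differences, the same measure was highest in embryo 7, at 0.497, so array error was large there. It was 0.301 in embryo 11, 0.239 in embryo 1, 0.217 in embryo 19 and 0.235 in embryo 18. Embryo 11 had the largest deviation of all embryos from the median for 1069 features (24.4%), embryo 1 for 779 (17.8%) and embryo 7 for 540 (12.3%). Principal component 1 held 19.5% of the variance and component 2 held 15.7%. Embryo 11 had the most extreme score on the first, 49.2, and embryo 1 on the second, 37.9.

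Measures of array quality moved with principal component 1. Over the 15 embryos its Spearman correlation was -0.746 with the correlation of an embryo's arrays (permutation test, adjusted p = 0.0095; Pearson r = -0.44), -0.711 with the deposited array median (adjusted p = 0.0105; r = -0.565) and 0.571 with the spread of the arrays (adjusted p = 0.0481; r = 0.707). It was 0.386 with the rows without a value (adjusted p = 0.196; r = 0.0583) and -0.118 with the difference of the deposited medians between orientations (adjusted p = 0.677; r = -0.435), the p-values being adjusted over 5 relations. By Pearson's r only the spread of the arrays passed (permutation test, adjusted p = 0.0292). Without the 2 embryos farthest from the median of the measure, r was -0.614, -0.656 and 0.14 for the first 3 and -0.138 and -0.0176 for the others. With the same scores and without embryo 11, the Spearman correlations over the other 14 embryos were -0.697 (permutation test, adjusted p = 0.035), -0.653 (adjusted p = 0.035) and 0.473 (adjusted p = 0.111) for the first 3, so the relation with the spread of the arrays no longer passed. A component 1 computed anew without embryo 11 is another axis, and its correlations with these measures were -0.0769, -0.16 and -0.0549.

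Some genes set embryo 11 apart on both of its arrays. HRH1, a histamine receptor, was at -1.40 in embryo 11 and at a mean of 1.79 ± 0.689 (SD, n = 14) in the others. RPUSD2, a pseudouridine synthase, was at -1.55 against 1.60 ± 0.423, TRIM37, a ubiquitin ligase, at -3.75 against -0.68 ± 0.489, and SPICE1, a centriole and spindle protein, at -2.97 against -0.08 ± 0.390. On the other side ABCC3, an organic anion transporter, was at 0.67 against -2.25 ± 0.584 and ME1, malic enzyme, at -1.01 against -3.66 ± 0.797. The arrays of embryo 11 gave SPICE1 at -2.98 and -2.97 and TRIM37 at -3.66 and -3.85.

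In embryo 1 the lipoprotein receptor relative LRP4 was at 0.41, where the other 14 had a mean of -2.65 ± 0.610 (SD), and ME1 was high there too, at -1.49. Its lowest genes against the others were WDR89, UBE2B (-2.84), DMTF1, SPRTN, SH2D4A (-2.91 against -0.17 ± 0.4), LOC782748 and the transcription factor ZNF143 (-2.30 against 0.12 ± 0.551). Embryo 7 differed in kind, since several of its lowest values came mainly from one array. GAA, the lysosomal glucosidase, read -6.35 with the embryo in Cy5 and -1.47 in Cy3, CTSA read -3.81 and 0.58, and CDK2 read -4.68 and -2.04; GAA did not pass the F-test (adjusted p = 0.341). Other genes of embryo 7 agreed on both arrays: OCIAD2 read -0.21 and -0.01, and the translation factor EIF4A2 read 0.20 and 0.09 where the other 14 had a mean of -1.27.

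Co-variation was described among the 150 named genes of highest embryo SD past the F-test. Of their 11175 pairs, 184 had r above 0.7 and 85 below -0.7 over the 15 embryos. Read on opposite arrays, 178 of the 184 had r above 0.5. The 184 were picked on the means of these same arrays, so that count follows in part from the choice. The median pair correlation was 0.057. Average linkage at r of about 0.6 gave 9 groups of at least 5 genes, 55 genes in all. No test belongs to these groups, which were formed from the values they describe.

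The largest group had 10 genes: QRSL1, DUSP6, HRH1, ZNF512, TRIM37, RPUSD2, CDC42SE2, SPICE1, HARS2 and CDK14. Its mean deviation was -2.66 in embryo 11, and the next lowest embryo was at -0.34. Its median pair correlation of 0.714 was 0.103 without embryo 11, so their correlation rested on that embryo. The next, WDR89, GCFC2, TRIM13, PNPT1, IQCB1, ZNF143 and C24H18orf32, was low in embryo 1 at -2.08 and in embryo 11 at -1.47, and its 0.694 was 0.157 without embryos 1, 7 and 11. The group of PTPRF, TMBIM1, UBAP1, TLE1, SOCS5 and LIN52 had 0.660 and, without these 3 embryos, 0.439. That of ADNP, MEPCE, LOC613444, DNAJA3 and WDR48 had 0.699 and 0.350.

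In the other 5 groups the median pair correlation stayed above 0.5 without embryos 1, 7 and 11. Without the embryo of largest mean deviation in each group it was between 0.492 and 0.572. KCTD18, MYO1D, TCAF1, RAB22A and PIGK had 0.7 with all embryos and 0.713 without embryos 1, 7 and 11. Embryo 18 deviated most in this group, and without it the value was 0.57. These genes, of which RAB22A is an endosomal GTPase and PIGK a subunit of the GPI-anchor transamidase, were low in embryo 18 at -2.03 and embryo 19 at -1.30 and high in embryo 11 at 1.47. C1H3orf38, PRADC1, TXNDC9, MRPL51 and RPRD1A had 0.704 and 0.650, with embryo 1 low at -1.92 and embryo 10 high at 0.97. OSGIN2, TBPL1, CXCL16, BAG4 and OPLAH had 0.732 and 0.585, with embryo 11 low at -2.07 and embryo 18 high at 1.38. DAGLB, RMDN2, HMOX1, GDPD1, IPO11 and ABHD6 had 0.673 and 0.561, with embryo 11 low at -1.99 and embryo 18 at -1.44. DAGLB and ABHD6 both act on 2-arachidonoylglycerol, as a synthase and a hydrolase. PLP2, SLCO2B1, USP3, SDC1, THEM4 and RNF149 had 0.695 and 0.549, with embryo 1 high at 1.52 and embryo 6 at 1.00.

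**Figure D4:**
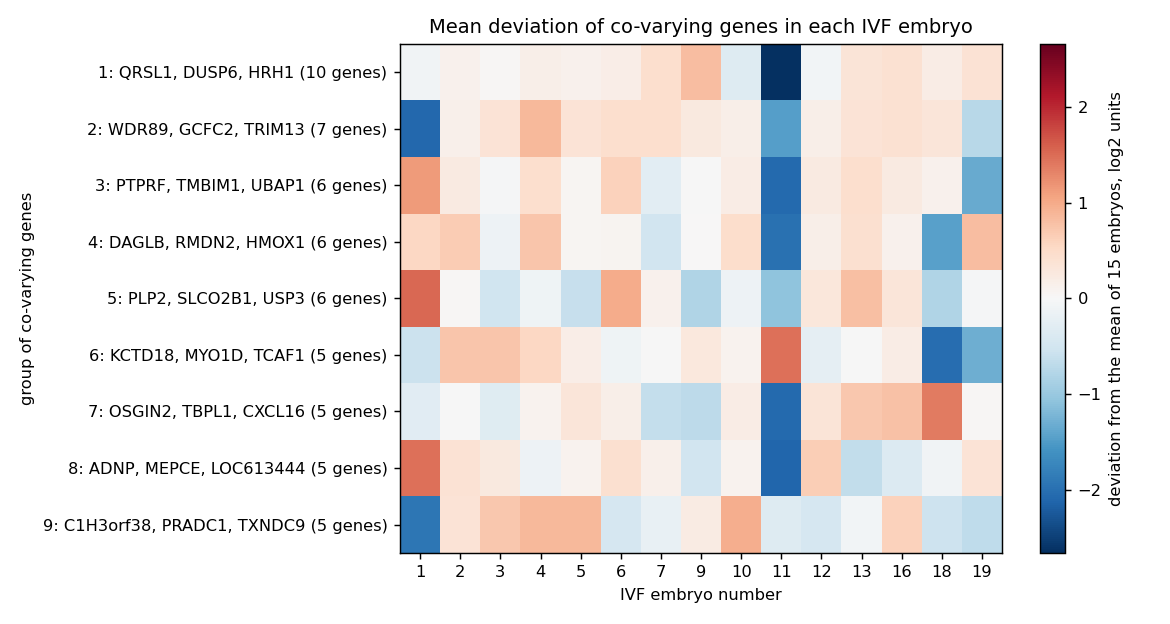
Rows are the 9 groups of co-varying genes, named by their first 3 members, columns the 15 IVF embryos, and colour the mean deviation of the group from the mean of the embryos in log2 units. Embryo 11 is the lowest in groups 1, 3, 4, 5, 7 and 8, embryo 1 in groups 2 and 9, and embryo 18 in group 6.

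For the genes of highest SD the closest partners were found by reading one gene on Cy5-embryo arrays and the other on Cy3-embryo arrays. The closest to DMTF1 were GPR89A (r = 0.868), EMC7 (0.866), ANXA4 (0.796) and VBP1 (0.787). WDR89 was closest to ID2 (0.841), SARNP (0.831), RNMT and SRP19 (0.808 each), and LOC782748 to ITGB1BP1 (0.834), CACYBP (0.825), DDX47 (0.797) and CHMP5 (0.751). SPRTN was closest to DUSP12 (0.832), APPBP2 (0.773), SUCLG2 (0.769) and YTHDC1 (0.768). CLDN1 shared SPRTN (0.725) and YTHDC1 (0.702) as its closest partners. TM7SF3 was closest to MDC1 (0.764) and ARIH1 (0.752). Without the most extreme embryo of the first gene, the embryo means of these 24 pairs were correlated again. The values lay between 0.552 for TM7SF3 with MPRIP and 0.888 for DMTF1 with VBP1. The partners were picked for their high correlation on these same arrays. High values, also without the most extreme embryo, therefore follow in part from the choice, and no test belongs to these pairs. The clones of SARNP and of MPRIP disagreed over the embryos (lowest r between rows 0.125 and -0.258).

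The spread of the IVF embryos was set against that of the AI and IVD embryos on 4335 features. The median embryo SD was 0.412 in IVF, 0.379 in AI and 0.330 in IVD, and the median technical SD was 0.197, 0.160 and 0.0744. With the technical variance subtracted feature by feature, the medians were 0.335, 0.328 and 0.317. By the F-test on these features, 68.4% varied between embryos in IVF, 74.8% in AI and 94% in IVD. A Levene-type limma fit of the absolute deviations called 0 features wider (0%) and 0 narrower (0%) than AI, and 0 wider and 0 narrower than IVD, at an adjusted p under 0.05. At an unadjusted p under 0.05 it had 241 wider and 225 narrower than AI, and 444 wider and 144 narrower than IVD. The lowest adjusted p was 0.0984 against AI and 0.0806 against IVD. Missing this threshold does not show that the spreads were alike. On simulated data the fit against AI recovered 26 of 200 features (13%) whose SD was 2 times as high. The same fit on the half-differences called 2592 features with more array error in IVF than in IVD and 2 with less, and 6 with more and 5 with less than in AI.

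Of the 20 genes of highest SD in IVF, 6 had an SD above 1 in AI, 2 in IVD and 1, CLDN1, in both. The genes were chosen for their spread in IVF, so a lower value elsewhere is no result. MYO1D had 1.16 in IVF, 0.536 in AI and 0.397 in IVD (limma, adjusted p = 0.207 and 0.0909). SGCE had 0.362 in AI and 0.169 in IVD, beside 0.318 in the IVF embryos without embryo 11. CLDN1 had 1.56 in AI and 1.10 in IVD, and KCTD18 had 1.46 in AI.

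For the whole profile, no difference in the distance from the group mean was detected between IVF embryos and the other groups. Over 3533 features measured in all 43 embryos the distance was 0.465 ± 0.131 (SD, n = 15) in IVF, 0.467 ± 0.0579 (n = 14) in AI and 0.412 ± 0.067 (n = 14) in IVD. The difference from AI was -0.00242 (two-sided permutation test, p = 0.95; adjusted over both comparisons, 0.95) and that from IVD 0.0529 (permutation test, p = 0.192; adjusted 0.385). IVF embryos had both the lowest value of the 3 groups, 0.328, and the highest, 0.764. Without embryos 1, 7 and 11 the differences were -0.0598 (permutation test, p = 0.0468) and -0.00443 (p = 0.885), an alternative that takes out the farthest embryos of one group only. The distance made from half-differences was 0.22 in IVF and 0.0974 in IVD (permutation test, p = 1e-05, the smallest that the permutations can give) and 0.186 in AI (permutation test, p = 0.153).

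**Figure D5:**
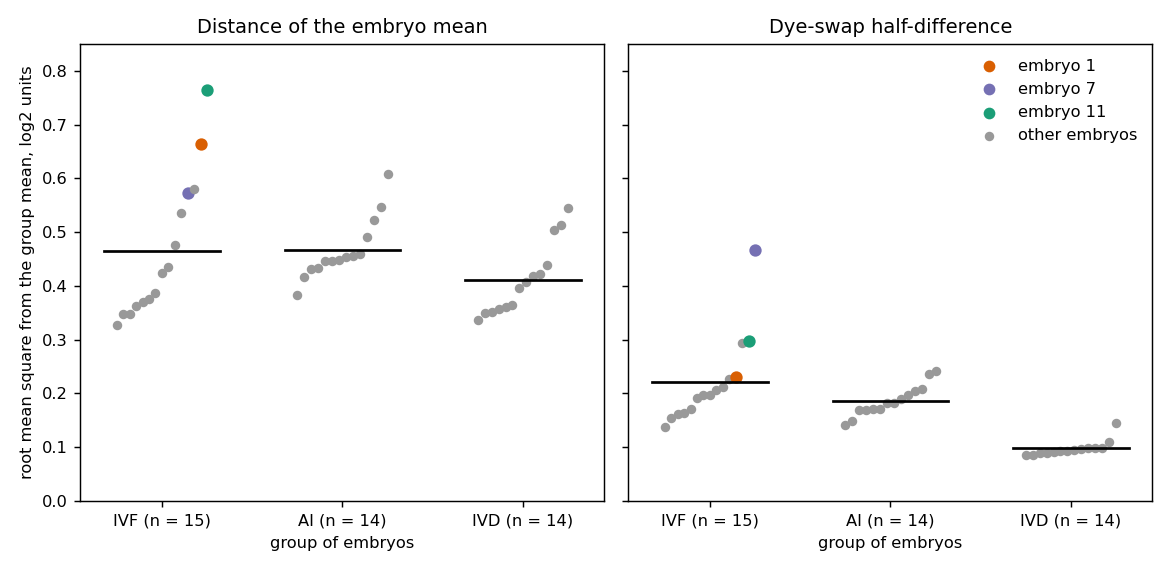
Each point is an embryo, set out by group in rising order; the vertical axis is its root mean square distance from the group mean in log2 units, on the left from embryo means and on the right from dye-swap half-differences, and bars are group means. On the left IVF embryos run from 0.328 to 0.764 around 0.465, overlapping AI and IVD, and on the right the IVF mean is 0.22 and the IVD mean 0.0974.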

How the data were processed

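The authors deposited a table of log2 ratios, whose unit is not written in it: its commonest values are log2 of small whole-number ratios. Per the labels, each array holds an embryo and the reference standard in opposite dyes; how spots were scanned, background-corrected and scaled is not stated in the labels or the table. The 16 spots above 16 were set missing. From each array its median over the 5558 rows with a value on all 86 arrays was subtracted, Cy3-embryo arrays were turned, and both arrays of an embryo were averaged. Rows with the same gene symbol were averaged: 11196 rows had 1 symbol in the platform annotation, 190 had several and 5030 were not listed; 11182 of the former were updated through RefSeq (ARS-UCD2.0).

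Tests used limma 3.58.1 in R 4.3.3 with Benjamini-Hochberg adjustment over all features at 0.05: a moderated F over embryos with dye as covariate, the mean against 0, and a Levene-type fit of absolute deviations over all 43 embryos (at least 10 per other group). Other values had permutation tests with 100000 resamples. The fits were run on simulated data with 200 changed features. The F-test recovered 0, 109 and 191 of them at an added SD of 1, 2 and 3 times the technical SD. The test against the reference recovered 159 at log2 0.5 and 195 at log2 1. In these 2 simulations all other features were unchanged. In the data 68.1% passed the F-test, and 37.4% and 40.3% were above and below the reference. The adjustment is stricter where few features change, so these counts do not give the sensitivity of either test in the data. The spread fit against AI recovered 0, 26 and 130 at an SD of 1.5, 2 and 3 times. Genes named are the 20 highest and 8 lowest by embryo SD, the 12 highest and lowest means, up to 4 per list, co-varying groups from 150 genes and 4 partners of 6 genes; all others, including genes of embryos 1, 7 and 11, were chosen after their values were seen. The members, the 26 lists and the rules were chosen with earlier results of these data known.

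Nothing in the labels says that embryos came from separate cultures, dams or sires. Alternatives in centring, scale, missing values, averaging, orientation and embryos were run.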

Additional observations from a re-analysis of the deposited data

How the results depend on the processing

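Leaving out each IVF embryo in turn gave 2687 to 3235 varying features, 1615 to 1667 above and 1735 to 1797 below the reference, a median embryo SD of 0.391 to 0.42, a median technical SD of 0.189 to 0.203 and a component 1 share of 19.2% to 22.4%. It gave 0 to 0 features wider and 0 to 6 narrower than AI (6 without embryo 11), 0 to 6 wider and 0 to 3 narrower than IVD (without embryos 3 and 1), distance differences of -0.0268 to 0.00856 from AI and 0.0286 to 0.0639 from IVD, and 0 to 3 technical measures related to component 1, which was computed anew each time (0 without embryo 11, where it is another axis; with the scores of all 15 embryos kept, the array correlation and the deposited median still passed over the other 14). Spearman correlations of component 1 ranged from 0.0725 to 0.657 (rows without a value), -0.802 to -0.0769 (array correlation), -0.758 to -0.16 (deposited median), -0.398 to 0.499 (difference of medians) and -0.0549 to 0.67 (array spread).

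Without centring, 610 features varied, the technical SD was 0.521, component 1 held 49.7%, 1 technical measure was related to it (the rows without a value had rho = -0.296), 70 features were wider and 5 narrower than IVD, the distance differences were 0.0387 from AI and 0.16 from IVD (permutation test, p = 0.0166), the X chromosome had a median pair correlation of 0.546, and CYP11A1 and UBE4B had means of -0.0128 and -0.0296. Centring on all measured rows gave rho = 0.0714 for the difference of medians. With arrays scaled, 1 measure was related to component 1, that rho was 0.111, and 2 features were narrower than AI, 2 wider and 1 narrower than IVD. With quantile normalization 0 measures were related, that rho was 0.175, 5 features were wider and 1 narrower than IVD, and the distance from AI differed by 0.0149. With every row on its own, 4836 rows varied, 2715 were above and 2850 below the reference, more rows being tested. With at least 12 embryos, ATF3, SALL4 and WDR48 had means of -0.226, -0.172 and 0.0165, as further rows entered. On Cy5-embryo arrays alone 1 feature was wider and 3 narrower than IVD and the distance from AI differed by 0.0194. On Cy3-embryo arrays alone 3 were wider and 1 narrower than AI, 16 wider and 1 narrower than IVD, and the distances differed by 0.00363 from AI and 0.0859 from IVD (permutation test, p = 0.0184). Without embryos 1, 7 and 11, chosen after seeing the data, 8 features were narrower than AI and 2 than IVD, the distances differed by -0.0598 and -0.00443, 0 measures were related to component 1, rho for the difference of medians was 0.245, and 56 of 195 named genes changed their SD by over 1.5 times. For the other alternatives the cause was not tested.

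Embryo numbers shared between groups were taken as names only, since the labels give them no meaning. With the number as a replicate block, the spread fit called 0 features wider and 0 narrower than AI and 0 and 0 than IVD. The IVD embryos 12_1, 12_2, 12_3 and 12_4 share a number within their group. They were counted as separate embryos, and whether they are related is not stated in the labels.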
